A study of Mus musculus with 18 samples.

Results

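Apoe, Abca1, Abcg1, Nr1h3, Lpl, Fabp5, Plin2, Soat1 and Apoc1 are genes by which cells release, take up and store lipid. They were chosen by name, from these 9 symbols in the deposited table, and all 9 were found among 28684 genes. The libraries came from C57BL/6 mice, from sciatic nerve and from dorsal root ganglia L3-L5 (DRG), where the sensory neurons that send axons through the nerve have their cell bodies. Each tissue has 3 libraries with no disease, 3 at peak disease, labelled PID21, and 3 in recovery, labelled PID42, which makes 6 groups. No genotype or drug is named for any group. The sources used here give neither the way of inducing disease nor the meaning of PID. Whether each library is a separate animal is not labelled, and a p-value here covers only the spread among the samples at hand, which may be technical. Library preparation was for mRNA in bulk, in which fewer cells of a type and less RNA per cell cannot be told apart.

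When cells take in cholesterol, for example from myelin debris, oxysterols activate liver X receptors, of which Nr1h3 encodes the alpha form. These receptors switch on Abca1 and Abcg1, the transporters that export cholesterol, and Apoe, the apolipoprotein that carries it away. Lpl releases fatty acids from lipoproteins at the cell surface, Fabp5 carries fatty acids within cells, Soat1 esterifies cholesterol for storage, and Plin2 coats the lipid droplets in which it is stored. Apoc1 encodes a small apolipoprotein, and in peripheral nerve macrophages and Schwann cells are known to handle myelin lipid.

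Total counts per library ranged from 13686465 to 23435562. A pair of ribosomal RNA genes took 3.29% to 23.6% of the counts in no disease nerve, 0.488% to 2.14% in peak nerve and 0.485% to 5.2% in recovery nerve, against 3.65% to 15.8% in DRG. Among the nerve libraries, no disease replicate 1 had the lowest summed Schwann cell markers of its group (15744 CPM, counts scaled to a common library size) and the highest summed macrophage markers (1494 CPM). It also had the highest level of its group for Apoe, Abca1, Nr1h3, Lpl, Plin2, Soat1 and Apoc1 and the lowest for Abcg1 and Fabp5. The defining neuron markers went with the labels, since the 8 summed to 10345 to 12132 CPM in no disease DRG and to 73.5 to 407 CPM in no disease nerve.

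Abca1 and Plin2 were the 2 genes called higher at peak in both tissues, so their promoter windows are shown. RefSeq windows of 300 bases, from 250 before to 50 after the start, were matched for 5 of the 9 genes on GRCm38.p6. Both lie on the minus strand, Abca1 at chr4:53159846-53160145 and Plin2 at chr4:86670010-86670309, and are written 5′ to 3′ with the motifs found in capitals.
Abca1: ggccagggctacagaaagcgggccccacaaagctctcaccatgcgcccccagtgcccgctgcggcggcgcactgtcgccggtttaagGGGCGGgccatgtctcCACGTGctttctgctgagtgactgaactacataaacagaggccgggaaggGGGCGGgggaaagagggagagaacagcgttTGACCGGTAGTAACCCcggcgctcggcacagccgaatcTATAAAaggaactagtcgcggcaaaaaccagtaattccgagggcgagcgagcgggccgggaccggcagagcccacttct
Plin2: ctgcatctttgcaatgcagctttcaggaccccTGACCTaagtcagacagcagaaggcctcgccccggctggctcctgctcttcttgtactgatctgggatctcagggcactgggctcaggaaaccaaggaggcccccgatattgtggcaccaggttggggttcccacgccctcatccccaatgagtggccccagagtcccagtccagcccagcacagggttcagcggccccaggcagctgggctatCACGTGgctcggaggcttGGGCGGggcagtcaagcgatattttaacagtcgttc
Motifs were searched on both strands and placed by distance from the start. CACGTG, the E-box, stands in both windows, at -147 to -142 in Abca1 and at -4 to 2 in Plin2, and in 7.15% of 32851 windows of the same length. GGGCGG, the GC box, stands in Abca1 at -163 to -158 and at -97 to -92, in Plin2 at 15 to 20, and in 35.7% of all windows. TATAAA stands in the Abca1 window at -29 to -24 and in 13.6% of windows. AGGTCA, the single site to which many nuclear receptors bind, stands in Plin2 at -218 to -213 and in 16.3% of windows. The DR4 element, the kind to which liver X receptors bind, was searched as GGTNA, then 5 bases of any kind, then GGTCA, and these letters were widened after the Abca1 window had been read. It stands in Abca1 at -67 to -52 and in 0.207% of windows. Because the letters were set after this window was read, that share cannot show the Abca1 match to be rare. None of these motifs overlaps another in either window. A match in letters is a description, not a bound site.

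At peak disease the nerve held more RNA of the cholesterol exporters, of the apolipoprotein that receives the cholesterol, of 1 fatty acid carrier and of both storage genes. Of the 9 genes, 6 were higher in peak than in no disease nerve at an adjusted p under 0.05 by edgeR's quasi-likelihood test, a call that 15.0% of the 16049 genes tested received. None of the 9 was lower, against 12.1% of all genes. The median log2 fold change was 1.09 over the 9 and 0 over all genes. When all 18 libraries were fitted at once the split over all genes was 2254 higher and 3026 lower, against 2406 and 1949 in the fit of nerve alone, and the 6 were called in both fits.

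The efflux genes rose in different degrees. Apoe (ENSMUSG00000002985, GRCm38 chromosome 7, 19696109 to 19699188) had 3399, 5022 and 3650.0 CPM in peak nerve, against 1057, 761 and 711 CPM in no disease nerve. Every peak library lay above every no disease library, and the lowest peak value was 3.22 times the highest no disease value. The fold was 4.77 (log2 fold change 2.26 ± 0.21 SE, adjusted p = 9.97e-05). Abca1 (ENSMUSG00000015243, chromosome 4, 53030787 to 53159895), which loads cholesterol onto lipid-poor apolipoproteins, had 777, 1052 and 903 CPM in peak nerve, against 377, 250.4 and 236 CPM in no disease nerve. The groups did not overlap, and the log2 fold change was 1.66 ± 0.18 (adjusted p = 0.000208). Abcg1 (ENSMUSG00000024030, chromosome 17, 31057675 to 31117988), which passes cholesterol on to larger lipoproteins, had 56.7, 75.4 and 63.8 CPM in peak nerve, against 30.3, 45.3 and 44.3 CPM in no disease nerve. Its groups did not overlap either, and its log2 fold change of 0.71 ± 0.15 (adjusted p = 0.0085) was the smallest of the 6 called.

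Nr1h3 (ENSMUSG00000002108, chromosome 2, 91184061 to 91202834), the receptor gene itself, had 33.7, 32.1 and 36.8 CPM in peak nerve, against 31.7, 30.3 and 30.7 CPM in no disease nerve. The peak libraries lay just above the no disease libraries without overlap, with a log2 fold change of 0.15 ± 0.08 (adjusted p = 0.208). The 34 bases by which an exon of Gm13783 overlaps its exons lie on the same strand.

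Uptake genes did not move together. Fabp5 (ENSMUSG00000027533, chromosome 3, 10012548 to 10016607) had 115, 208 and 146 CPM in peak nerve, against 36.4, 41 and 44.3 CPM in no disease nerve. All peak libraries lay above the no disease libraries, with a log2 fold change of 1.95 ± 0.20 (adjusted p = 0.000146). Lpl (ENSMUSG00000015568, chromosome 8, 68880491 to 68907448) had 175, 72.8 and 438 CPM in peak nerve, against 607, 378 and 298 CPM in no disease nerve. Its groups overlapped because peak replicate 3 lay above 2 no disease libraries, and its log2 fold change of -0.90 ± 0.53 did not pass (adjusted p = 0.235). Without that library it was -1.78 ± 0.42 (adjusted p = 0.0134). In the other 11 of 12 alternatives Lpl was not called, with an adjusted p by edgeR of 0.507 without no disease replicate 1.

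Both storage genes rose. Plin2 (ENSMUSG00000028494, chromosome 4, 86648386 to 86670060) had 125, 127 and 179.8 CPM in peak nerve, against 75.7, 63.1 and 63.7 CPM in no disease nerve (log2 fold change 1.09 ± 0.15, adjusted p = 0.000797). Soat1 (ENSMUSG00000026600, chromosome 1, 156424525 to 156474331) had 157, 189 and 142 CPM in peak nerve, against 65.7, 54.8 and 55 CPM in no disease nerve (1.47 ± 0.12, adjusted p = 4.32e-05). For both genes every peak library was above every no disease library. Soat1 was the gene of the 9 with the smallest p in this comparison, at rank 99 of 16049. Apoc1 (ENSMUSG00000040564, chromosome 7, 19689481 to 19692660) had 8.31, 8.33 and 11.7 CPM in peak nerve, against 13.8, 7.33 and 9.93 CPM in no disease nerve. The groups overlapped throughout (-0.14 ± 0.24, adjusted p = 0.704), although Apoc1 lies next to Apoe on the chromosome.

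**Figure D1:**
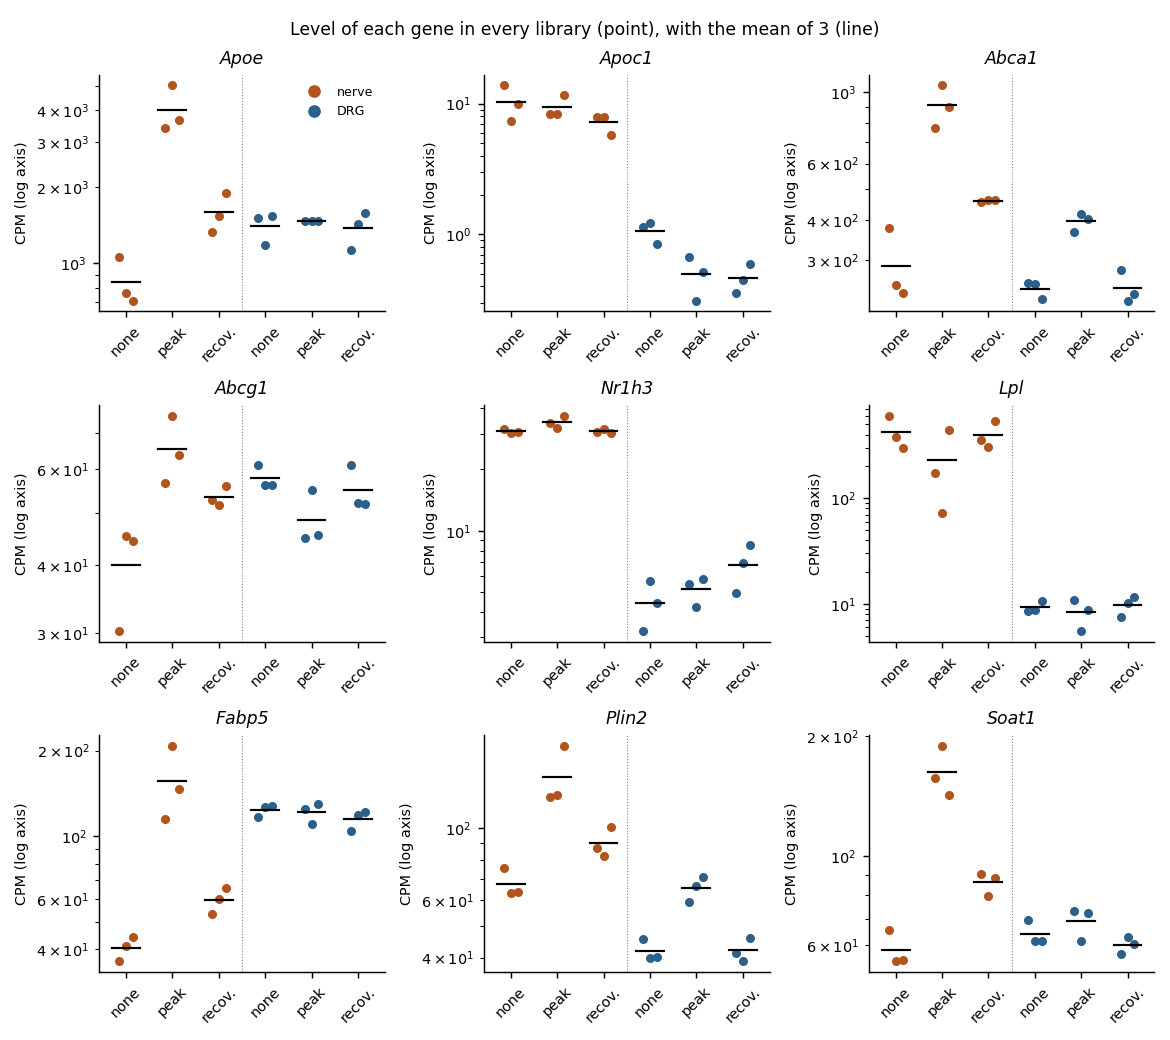
Level of each of the 9 genes in CPM (log axis) in all 18 libraries, with nerve in orange at left and DRG in blue at right, by stage (none is no disease). Points are libraries and lines are means of 3. In nerve the 3 peak points of Apoe, Abca1, Abcg1, Fabp5, Plin2 and Soat1 stand above all no disease points, whereas the Lpl peak points spread between 72.8 and 438 CPM.

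The order of the peak nerve libraries was shared by several genes. Peak replicate 2 was the highest peak library for Apoe, Abca1, Abcg1, Fabp5 and Soat1 and the lowest for Lpl, and it also had the highest summed macrophage markers (5960.0 CPM) and the lowest summed adipocyte markers (459 CPM). Plin2, Nr1h3, Lpl and Apoc1 were highest in peak replicate 3. Summed over 12 markers, macrophage RNA was at 4038, 5960.0 and 2885 CPM in peak nerve, against 1494, 937 and 958 CPM in no disease nerve, and 7 of the 12 were called higher and 1 lower. Cd68 was 2.68 ± 0.21 and Mpeg1 3.64 ± 0.29 higher on the log2 scale, and Cd14 (-0.48 ± 0.15) was the 1 lower. Mrc1 (-0.42 ± 0.17), Itgam (0.51 ± 0.24), Csf1r (0.71 ± 0.24) and Fcgr1 (0.97 ± 0.33) were not called. Lyz2 went from a mean of 322 CPM in no disease nerve to 2356 CPM in peak nerve, so it weighs heavily in the sum. Summed over 8 markers, adipocyte RNA was at 1532, 459 and 2756 CPM in peak nerve, against 4126, 2303 and 2530.2 CPM in no disease nerve. None of the 8 was called, with a median log2 fold change of -0.86, and the order of the 3 peak libraries was that of Lpl. Of the other marker lists, 3 of 11 Schwann cell genes were higher, 3 of 6 fibroblast genes higher and 2 lower, 4 of 6 endothelial genes lower, 7 of 8 sensory neuron genes lower and 5 of 6 skeletal muscle genes lower. The satellite glia list had 2 of 6 higher and 1 lower. Over all genes 15.0% were higher and 12.1% lower. The sums for fibroblasts were 18675 to 22824 CPM in peak nerve and 12821 to 15558 CPM in no disease nerve, and for Schwann cells 13874 to 22716 CPM and 15744 to 28786 CPM in the same order. No defining marker was at 0 in all libraries of a nerve group apart from the muscle gene Mb at recovery. Their part in the changes of the 9 genes was not tested.

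**Figure D2:**
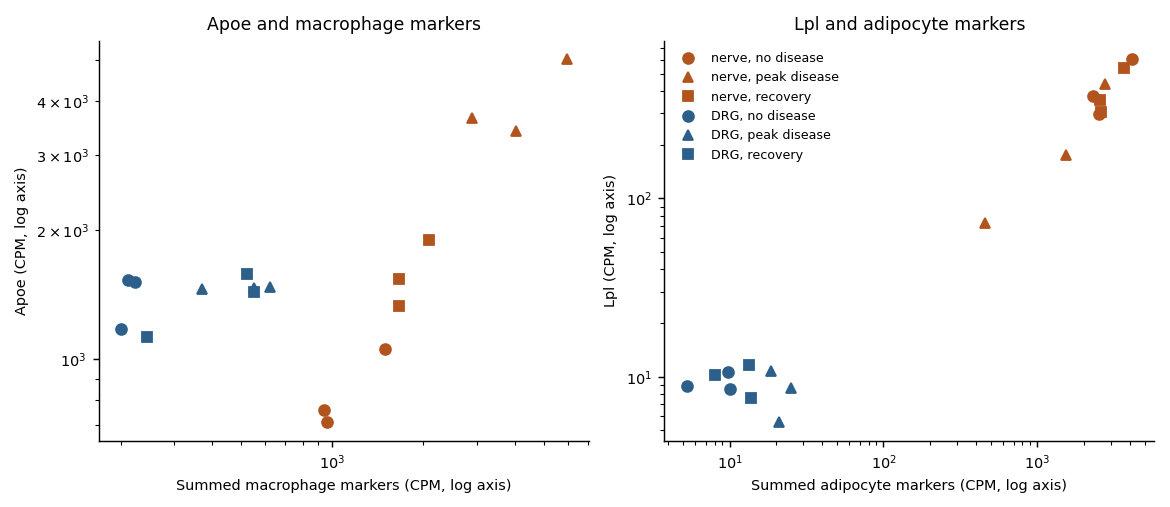
Left, Apoe against the sum of 12 macrophage markers, and right, Lpl against the sum of 8 adipocyte markers, both in CPM on log axes, with 1 point for each of 18 libraries (nerve orange, DRG blue; shapes give the stage). The peak nerve libraries are the 3 highest for Apoe, and for Lpl they span 72.8 to 438 CPM, while DRG stays at 11.6 CPM or below for Lpl.

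Other genes of lipid handling were counted in lists drawn up with earlier results of these data known. In peak against no disease nerve 15.0% of all genes were higher and 12.1% lower, and a count such as 2 of 12 is near those shares. Lysosomal cholesterol handling moved most often in peak against no disease nerve, with 7 of 10 genes higher and 1 lower and a median log2 fold change of 0.48. Among them were Psap (0.72 ± 0.08), the precursor of the saposins, Laptm5 (1.71 ± 0.23) and the acid lipase Lipa (0.72 ± 0.12), and Osbpl1a was the 1 lower (-0.44 ± 0.11). Of 12 partners and other targets of liver X receptors, 3 were higher and 1 lower, namely Arl4c (2.99 ± 0.34), Mylip (0.77 ± 0.12), which degrades lipoprotein receptors, Lpcat3 (0.46 ± 0.12) and the transporter Abcg2 (-0.60 ± 0.10). Of 12 lipoprotein and scavenger receptors tested, 2 were higher and 1 lower, and the higher ones were Trem2 (3.83 ± 0.27), a lipid receptor of macrophages, and Stab1 (1.49 ± 0.20). Exons of Lpcat3 and Stab1 overlap those of another gene, and with the strand setting not given their counts may include its reads.

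The shares of all genes in this comparison were again 15.0% higher and 12.1% lower. Of 7 other apolipoproteins and plasma lipid enzymes tested, 2 were higher and 1 lower, among them Apod (2.26 ± 0.17) and Clu (-0.76 ± 0.25). Of 12 fatty acid carriers and activating enzymes tested, Pmp2 (1.38 ± 0.20), the myelin member of the Fabp5 family, and Acsl5 (0.34 ± 0.08), whose exons overlap another gene, were higher, and Acsl6 (-0.94 ± 0.23) and Fabp7 (-2.59 ± 0.77) were lower. Of 17 other genes of lipid droplets tested, Nceh1 (0.41 ± 0.10) was called higher and 0 were lower. Of 8 PPAR receptors and partners, 0 were higher and Angptl4 (-0.94 ± 0.30), an inhibitor of Lpl, was lower.

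At recovery the nerve values lay between those of peak and no disease for the 6 genes. None of the 9 was called in recovery against no disease nerve by edgeR, a comparison in which 0.629% of all genes were higher and 0.393% lower. At an unadjusted p under 0.05, 6 of the 9 were higher and 0 lower, against 6.92% of all genes higher and 6.35% lower. DESeq2 called 3 of the 9 higher and 0 lower (1.76% of all genes higher and 1.66% lower), and limma-voom called 0 in each direction (0.343% higher and 0.218% lower). Apoe had 1331, 1535 and 1892 CPM in recovery nerve, all above the no disease libraries, with a log2 fold change of 0.91 ± 0.20 (adjusted p = 0.0765). Soat1 had 90.4, 79.9 and 88.4 CPM in recovery nerve, again above all no disease libraries (0.56 ± 0.12, adjusted p = 0.065). Abca1 had 455, 461 and 461 CPM in recovery nerve (0.67 ± 0.17, adjusted p = 0.124). The recovery libraries of Abca1 hardly differed among themselves and all lay above the no disease libraries.

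The same absence of overlap held for Abcg1 (0.43 ± 0.15, adjusted p = 0.264), Fabp5 (0.56 ± 0.19, adjusted p = 0.233) and Plin2 (0.42 ± 0.15, adjusted p = 0.257). The share of all genes whose groups do not overlap was not computed, here or in the other comparisons. Absence of overlap is therefore a description only. Nr1h3, Lpl and Apoc1 overlapped between the stages. Without no disease replicate 1 edgeR called Apoe (1.11, adjusted p = 0.0434) and Abca1 (0.92, adjusted p = 0.0203) higher at recovery. Without no disease replicate 2 the adjusted p by edgeR went the other way, to 0.263 for Apoe and 0.354 for Abca1. The authors' deposited table gives q under 0.05 for 4 of the 9, all higher in recovery than in no disease nerve. The share of all genes under that q in their table was not computed, so the count has no background here. In that table Apoe has a log2 ratio of 0.91 (q = 3.25e-06), Soat1 0.55 (q = 0.000977), Abca1 0.67 (q = 0.00108) and Fabp5 0.56 (q = 0.00338). Summed macrophage markers were at 1662, 1661 and 2094 CPM in recovery nerve, also above the no disease libraries, and their part was not tested.

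Set against peak, 5 of the 9 were lower in recovery nerve (11.1% of all genes lower) and 0 higher (7.36% of all genes higher). Fabp5 fell to 53.3, 60.3 and 65.9 CPM in recovery nerve (-1.38 ± 0.19, adjusted p = 0.00157), against 115 to 208 CPM in peak nerve. Apoe fell by 1.34 ± 0.21 on the log2 scale (adjusted p = 0.00261), Abca1 by 0.99 ± 0.17 (adjusted p = 0.00533) and Soat1 by 0.92 ± 0.12 (adjusted p = 0.00116). Plin2 had 87.2, 82.4 and 101 CPM in recovery nerve, below every peak library (-0.68 ± 0.15, adjusted p = 0.0134). That call was lost without recovery replicate 1 (adjusted p = 0.0571) or 2 (adjusted p = 0.0637). Abcg1, at 52.8, 51.7 and 56 CPM in recovery nerve, was below every peak library, but its log2 fold change of -0.29 ± 0.15 did not pass (adjusted p = 0.211).

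As a description, the recovery change was 60.6% of the peak change on the log2 scale for Abcg1, 40.4% for Abca1, 40.3% for Apoe, 38.5% for Plin2, 38.1% for Soat1 and 28.7% for Fabp5. These shares come from comparisons that use the same no disease libraries. Lpl had 357, 306 and 537 CPM in recovery nerve and did not differ past the threshold from peak (0.80 ± 0.53, adjusted p = 0.314). Without peak replicate 3 it was called higher at recovery (1.69, adjusted p = 0.0208), but in the other 11 of 12 alternatives it was not called. Nr1h3 (-0.15 ± 0.08) and Apoc1 (-0.40 ± 0.25) were not called. Over all genes 11.1% were lower and 7.36% higher in recovery against peak nerve. In the lists, lysosomal cholesterol handling had 3 of 10 lower and 1 higher in recovery against peak nerve, liver X receptor partners and targets 2 of 12 lower, the receptors 3 of 12 lower, other apolipoproteins 3 of 7 lower, fatty acid carriers 2 of 12 lower and PPAR receptors and partners 1 of 8 higher. Against no disease nerve 1 gene was higher in each of 3 lists, Trem2 (2.01 ± 0.26), Apod (1.04 ± 0.16) and Mylip (0.63 ± 0.12). None of the 7 lists had a gene lower, and over all genes 0.629% were higher and 0.393% lower.

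**Figure D3:**
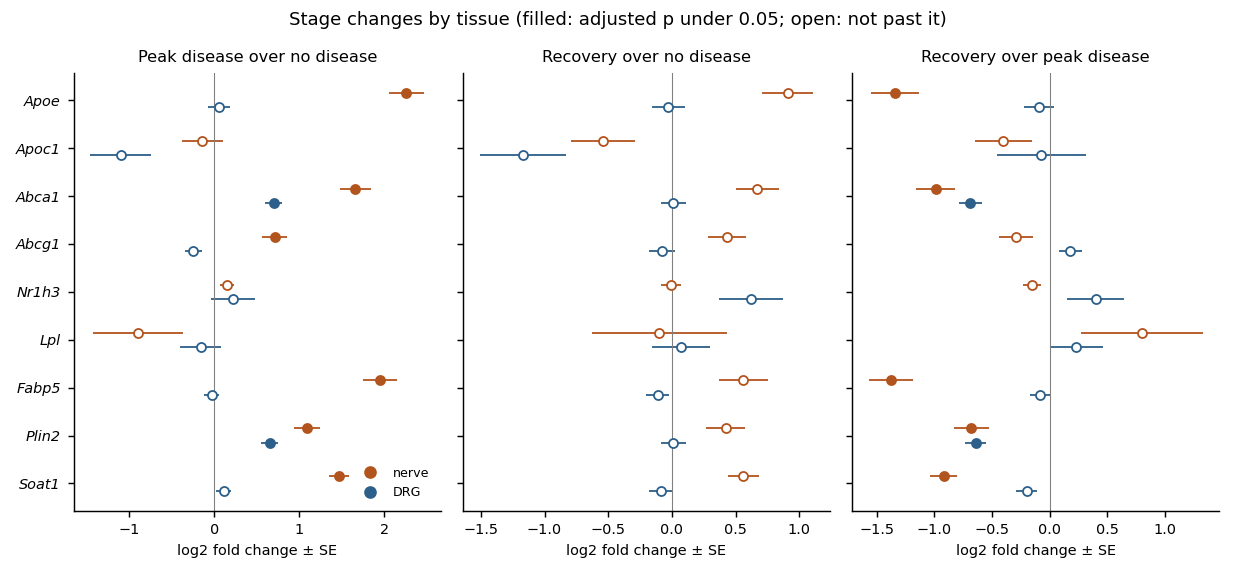
Log2 fold change ± SE of the 9 genes between stages, for nerve (orange) and DRG (blue), from edgeR fits within each tissue. Filled points passed an adjusted p of 0.05. In nerve 6 points are filled at peak, 0 in recovery over no disease and 5 in recovery over peak, and in DRG only Abca1 and Plin2 are filled.

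In DRG, 2 of the 9 genes were higher at peak than with no disease (4.42% of 16482 genes tested were higher) and 0 were lower (3.21% lower). Abca1 had 368, 419 and 402 CPM in peak DRG, against 254, 252 and 226 CPM in no disease DRG (0.70 ± 0.10, adjusted p = 0.00441). Plin2 had 59.2, 66.4 and 70.7 CPM in peak DRG, against 45.5, 39.9 and 40.1 CPM in no disease DRG (0.65 ± 0.10, adjusted p = 0.00562). Neither gene's groups overlapped. Both calls held in all 12 alternatives run.

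Apoe, the most abundant of the 9, had 1463, 1459.6 and 1469 CPM in peak DRG, against 1510.1, 1174 and 1528 CPM in no disease DRG, and the peak libraries lay within the no disease range (0.06 ± 0.13, adjusted p = 0.819). Fabp5 had 125, 110.1 and 129.9 CPM in peak DRG, against 117, 127 and 128 CPM in no disease DRG (-0.03 ± 0.09). Soat1 had 72.9, 61.6 and 72.4 CPM in peak DRG, against 69.4, 61.4 and 61.4 CPM in no disease DRG (0.11 ± 0.09, adjusted p = 0.491). The groups of both genes overlapped. Abcg1 had 44.9, 55.1 and 45.5 CPM in peak DRG, all under the 61.2, 56.3 and 56.2 CPM of no disease DRG, with a log2 fold change of -0.25 ± 0.10 that did not pass (adjusted p = 0.146). Nr1h3 (0.22 ± 0.26) and Lpl (-0.16 ± 0.24) were at 4.24 to 5.8 CPM and 5.54 to 10.8 CPM in peak DRG and overlapped with no disease DRG.

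Apoc1 was near the limit of detection in DRG, with 10, 5 and 7 counts in the peak libraries, 7, 11 and 14 in the recovery libraries and 21, 22 and 15 in the no disease libraries. Its CPM did not overlap between peak and no disease DRG or between recovery and no disease DRG, but neither change passed (-1.10 ± 0.36, adjusted p = 0.0921, and -1.17 ± 0.34, adjusted p = 0.0827). Macrophage markers in DRG summed to 552, 372 and 624 CPM at peak, against 223, 201 and 212 CPM with no disease, and 7 of 12 were higher and 0 lower. Schwann cell markers summed to 8648 to 9641 CPM in peak DRG, against 4741 to 6576 CPM in no disease DRG, with 5 of 11 higher. Of the fibroblast genes 3 of 6 were higher, and over all genes 4.42% were. In recovery DRG, where Abca1 and Plin2 were back near their no disease levels, 5 of 12 macrophage markers (median log2 fold change 1.07) and 5 of 11 Schwann cell markers (median 0.43) were still higher than with no disease. The sums in recovery DRG were 245, 551 and 521 CPM for macrophages and 8009.7 to 10002 CPM for Schwann cells. From peak to recovery DRG the median log2 fold change was 0.04 over the macrophage list and 0.02 over the Schwann cell list. Neither list had a gene called. Single macrophage markers went both ways, such as Cd68 from a mean of 8.35 to 5 CPM and Ptprc from 40.5 to 53.8 CPM. Abca1 changed by -0.69 and Plin2 by -0.64, and the part of these cell types in that was not tested.

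At recovery, DRG had 0 of the 9 higher (2.44% of all genes higher) and 0 lower (0.734% lower) than no disease by edgeR. At an unadjusted p under 0.05, 1 was higher and 1 lower, which is near the share of all genes (13.1% higher and 9.37% lower). DESeq2 called 0 of the 9 (6.04% of all genes higher and 3.87% lower), as did limma-voom (2.07% higher and 0.795% lower). Nr1h3 had 4.97, 6.94 and 8.56 CPM in recovery DRG, against 3.23, 5.65 and 4.43 CPM in no disease DRG (0.62 ± 0.25, adjusted p = 0.175). Without recovery replicate 1, the lowest of the 3, it was called higher (0.78, adjusted p = 0.036), but in the other 11 of 12 alternatives it was not. That library also had the lowest summed macrophage markers (245 CPM, against 551 and 521 CPM in the others), and their part was not tested. Abca1 had 279.9, 224 and 235 CPM and Plin2 41.2, 39 and 46 CPM in recovery DRG, both overlapping with no disease DRG (0.01 ± 0.10 for each). On the log2 scale these rounded values are 1.4% of the peak change of Abca1 and 1.5% of that of Plin2. With an SE of 0.10 neither share can be told from 0.

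Recovery set against peak DRG gave 2 of the 9 lower, Abca1 (-0.69 ± 0.10) and Plin2 (-0.64 ± 0.09), both at adjusted p = 0.0403, where 0.109% of all genes were lower, and 0 higher, where 0.0303% were higher. The recovery libraries of both genes lay below every peak library. The count went to 0 without peak replicate 2, peak replicate 3, recovery replicate 2 or recovery replicate 3. Soat1 had a log2 fold change of -0.20 ± 0.09 (adjusted p = 0.343). In peak against no disease DRG 4.42% of all genes were higher and 3.21% lower, the shares beside which the following list counts stand. In the lists, peak DRG had 3 of 12 receptors higher than no disease DRG, Trem2 (2.77 ± 0.23), Stab1 (1.44 ± 0.17) and Scarb1 (0.48 ± 0.12), and 0 lower. Of 5 other apolipoproteins and plasma lipid enzymes tested, Apod (1.06 ± 0.28) was higher and 1 was lower (median log2 fold change -0.03). Of 12 fatty acid carriers and activating enzymes tested, Pmp2 (1.44 ± 0.31) was higher and 1 was lower (median -0.05). Of 10 genes of lysosomal cholesterol handling, Laptm5 (1.37 ± 0.23) was higher and 1 was lower (median -0.11). Liver X receptor partners and targets had 0 of 12 called at peak, other droplet genes 0 of 16 and PPAR receptors and partners 0 of 8. In recovery against no disease DRG, 2 of 12 liver X receptor partners and targets were higher. Of the receptors 2 of 12 were higher and 1 lower, and of the lysosomal genes 1 of 10 was higher. The other lists had none called. Over all genes 2.44% were higher and 0.734% lower in recovery against no disease DRG.

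The peak change of nerve exceeded that of DRG for 5 of the 9 genes in a test of the difference itself, an interaction in 1 fit of all 18 libraries (6.63% of 17289 genes higher). None was lower (9.47% of all genes lower). The test takes nerve and DRG libraries as independent, and whether they share animals is not labelled. The difference in log2 fold change, nerve minus DRG, was 2.15 ± 0.27 for Apoe (adjusted p = 0.000137), 1.93 ± 0.22 for Fabp5 (adjusted p = 7.48e-05), 1.33 ± 0.16 for Soat1 (adjusted p = 0.000111), 0.93 ± 0.19 for Abcg1 (adjusted p = 0.00487) and 0.92 ± 0.23 for Abca1 (adjusted p = 0.0128). The median over all genes was -0.08. For Plin2 the difference was 0.40 ± 0.19 (adjusted p = 0.154), so a different response between the tissues was not detected, and for Lpl (-0.79 ± 0.68), Nr1h3 (-0.12 ± 0.26) and Apoc1 (0.91 ± 0.45) neither. Abca1 rose in both tissues and more in nerve.

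The change from peak to recovery also differed between the tissues, with 3 of the 9 lower in nerve minus DRG (4.38% of all genes lower) and 0 higher (3.46% higher). The difference was -1.27 ± 0.22 for Fabp5 (adjusted p = 0.00442), -1.22 ± 0.27 for Apoe (adjusted p = 0.0145) and -0.69 ± 0.16 for Soat1 (adjusted p = 0.0203). The Soat1 call was lost without DRG peak replicate 2, DRG recovery replicate 2 or nerve recovery replicate 2. Abca1 (-0.27 ± 0.22) and Plin2 (-0.01 ± 0.19), the genes that also fell in DRG, showed no difference past the threshold. These differences share the peak libraries with the preceding ones.

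With no disease, 4 of the 9 genes were higher in nerve than in DRG (37.4% of all genes higher) and 3 lower (37.0% lower). In either direction 74.4% of all genes were called, and the count among the 9 is near that share. The largest difference was in Lpl, which had 611, 366 and 288 CPM in nerve, against 9, 9.22 and 11.1 CPM in DRG when all 18 libraries are scaled together. Nerve stood 43.1-fold above DRG (5.43 ± 0.55, adjusted p = 1.6e-07). Adipocyte markers, all 8 of which were higher in nerve, summed to 2303 to 4126 CPM in no disease nerve and to 5.26 to 10 CPM in no disease DRG, with none at 0 in all libraries of a group, and their part was not tested. Nr1h3 had 31.9, 29.4 and 29.7 CPM in nerve, against 3.39, 5.9 and 4.66 CPM in DRG (2.71 ± 0.18, adjusted p = 1.57e-09). Apoc1 had 13.9, 7.11 and 9.6 CPM in nerve, against 1.19, 1.28 and 0.884 CPM in DRG (3.19 ± 0.29, adjusted p = 3.97e-08). All 12 macrophage markers were also higher in no disease nerve than in no disease DRG. Plin2 was 0.60 ± 0.13 higher in nerve on the log2 scale (adjusted p = 0.000769).

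Fabp5 was the gene with the largest difference the other way, with 36.6, 39.7 and 42.9 CPM in no disease nerve, against 122, 133 and 134 CPM in no disease DRG (-1.71 ± 0.16, adjusted p = 8.05e-08). Its peak nerve level on the same scale reached 108 to 197 CPM, against 109 to 134 CPM in DRG over all stages. Apoe was 0.83 ± 0.19 lower in nerve on the log2 scale (adjusted p = 0.000941), with 1063, 737 and 688 CPM in nerve and 1585, 1226 and 1605 CPM in DRG, and Abcg1 0.64 ± 0.14 lower (adjusted p = 0.000505). Abca1 was not called (0.15 ± 0.16, adjusted p = 0.411). For Soat1 the call depended on the setting. It did not pass with edgeR (-0.22 ± 0.12, adjusted p = 0.0908), but was lower in nerve with RLE size factors (-0.27, adjusted p = 0.0435), with DESeq2 (-0.27, adjusted p = 0.0447) and without nerve no disease replicate 1 (-0.34, adjusted p = 0.019). The authors' deposited table gives Soat1 a log2 ratio of -0.30 (q = 0.0385) for nerve over DRG. In the lists, 10 of 12 receptors were higher in nerve, among them Cd36 (5.76 ± 0.37), and 2 were lower. Of 18 other droplet genes 13 were higher, among them Cidec (9.23 ± 0.83), a coat gene of fat droplets, and 4 were lower. Fatty acid carriers had 4 of 12 higher and 7 lower, and liver X receptor partners and targets 5 of 12 higher and 4 lower. Lysosomal cholesterol handling had 5 of 10 higher and 1 lower, PPAR receptors and partners 5 of 8 higher and 2 lower. Other apolipoproteins had 2 of 7 higher and 2 lower. Over all genes 37.4% were higher and 37.0% lower in no disease nerve than in no disease DRG.

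Levels of different genes were compared per kilobase of exon. In no disease nerve Apoe had 388 ± 95.3 CPM per kilobase (SD, n = 3), followed by Lpl (40.3 ± 16.1), Abca1 (27.3 ± 8.02), Plin2 (18.9 ± 2.43), Apoc1 (13.7 ± 4.64), Nr1h3 (12.1 ± 0.537), Fabp5 (11.1 ± 0.879), Soat1 (5.87 ± 0.763) and Abcg1 (5.35 ± 1.03). Apart from Apoe and Lpl, Abca1 and Plin2, and Fabp5 and Soat1, neighbours in this order overlapped between libraries. In no disease DRG the order was Apoe (689 ± 99.9), Fabp5 (36.4 ± 1.81), Abca1 (24.7 ± 1.51), Plin2 (12.5 ± 0.973), Abcg1 (8.31 ± 0.422), Soat1 (6.86 ± 0.507), Nr1h3 (1.85 ± 0.497), Apoc1 (1.5 ± 0.281) and Lpl (0.934 ± 0.112), and only Nr1h3 and Apoc1 overlapped as neighbours. By this measure Apoe ranked 34 among 28578 genes in no disease nerve, 8 at peak and 16 at recovery, and 17 to 19 in DRG.

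**Figure D4:**
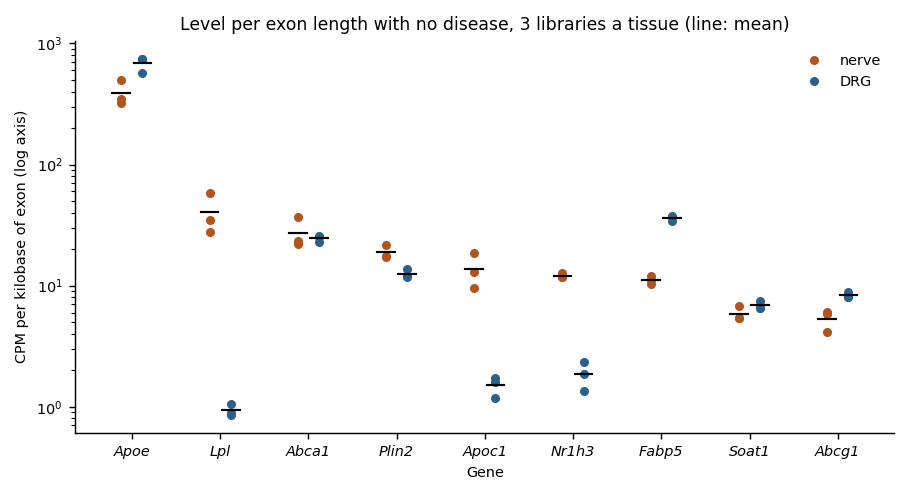
Level per kilobase of exon (CPM per kilobase, log axis) of the 9 genes with no disease, in nerve (orange) and DRG (blue), with 1 point for each library and a line at the mean of 3. Apoe is highest in both tissues, and Lpl goes from the second place in nerve (40.3) to the last in DRG (0.934).

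Apoe made up 73.6% to 74.6% of the summed level per kilobase of the 9 genes in no disease nerve, 86.1% to 90.2% at peak and 79.9% to 83.2% at recovery. In DRG its share stayed between 85.9% and 89.3% in all 9 libraries.

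The genes whose pattern was most like each of the 9 were found by Pearson correlation of log2 CPM over the 18 libraries, after the mean of each tissue was taken off, among 10451 genes. These are descriptions, since all genes share the libraries and their stages. Sox4 was among the 3 genes most like Apoe (r = 0.974) and among the 3 most like Soat1 (r = 0.972), and Gnpda1 was also among those of Apoe (r = 0.975). Fabp5 was nearest to Snx16 (r = 0.984), followed by the lysosomal protease Ctsd (r = 0.971). Tnik was nearest to Abca1 (r = 0.949) and second to Plin2 (r = 0.898). Abcg1 was nearest to Dcbld1 (r = 0.895), Nr1h3 to Nr2f2 (r = 0.883) and Apoc1 to Cog5 (r = 0.881). Lpl was nearest to Slc1a5 (r = 0.945), followed by the triglyceride lipase Pnpla2 (r = 0.938) and Adipor2 (r = 0.934).

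Near copies could share reads with some of these genes. Fabp5 has 5 processed pseudogenes that match its transcript over at least 200 bases at 90% identity or more, and they held 154 counts in the 18 libraries, against 34818 for Fabp5. Plin2 has 1 such match with 16 counts, against 25550. Lpl has matches in 2 other genes, which held 2637 counts, against 60454 for Lpl, and 2636 of the 2637 were counts of Trim5. These totals were not split by tissue, and Lpl had only 89 to 274 counts in each DRG library. For Apoe, Abca1, Abcg1, Nr1h3, Soat1 and Apoc1 there were 0 such matches.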

How the data were processed

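Bulk RNA-seq was analysed for 18 mouse libraries. Per the file headers, the authors deposited raw counts per Ensembl gene, a normalised signal, and a table of log2 ratios and q-values for their comparisons. The deposited signal equals the counts times 1 constant for each library, with a largest relative departure of 5.11e-15 over genes with at least 50 counts. Per the submitters' processing notes, the tools were STAR 2.6.1a, kallisto 0.44.0 and Bowtie2 and the builds GRCm38 and mm10. The sources used here give no role for each tool, no counting step, no annotation and no strand setting.

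Counts were tested with edgeR 4.0.16 in R 4.3.3 (filterByExpr, TMM scaling, quasi-likelihood test), within each tissue for stages and over 18 libraries for comparisons of tissues. P-values were adjusted by Benjamini and Hochberg over all genes tested, with a threshold of 0.05, and the SE is the log2 fold change over the root of F. DESeq2 1.42.0, limma 3.58.1 (voom), other scaling, no filter, all libraries in 1 fit, a replicate block and leaving out each library were alternatives. The procedure was tested on simulated data. Levels were expressed as CPM with TMM scaling, within a tissue or over 18 libraries where tissues or genes are compared, and lengths are exon unions of GENCODE M21, in which 28578 IDs were found.

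The 9 genes and all lists were chosen with earlier results of these data known. In each list at most 4 called genes with at least 1 CPM on average are named, in order of p. Osbpl1a and further macrophage markers in nerve were named after their values were seen. Likeness used genes with at least 5 CPM in each tissue and a prior count of 2. No library was left out, and 0 columns of per-sample values were unused. The deposited group means were not used. Some genes that these rules would name are not reported here.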

Additional observations from a re-analysis of the deposited data

Results flagged for a closer look

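For 8 values a test of the difference between the tissues passed the threshold, in 1 edgeR fit of all 18 libraries. The peak change in nerve exceeded that in DRG by 2.15 on the log2 scale for Apoe, 1.93 for Fabp5, 1.33 for Soat1, 0.93 for Abcg1 and 0.92 for Abca1. The change from peak to recovery was lower in nerve than in DRG by a difference of -1.27 for Fabp5, -1.22 for Apoe and -0.69 for Soat1. Both sets of values use the same peak libraries. Summed macrophage markers moved in both tissues, to 2885 to 5960.0 CPM in peak nerve, against 937 to 1494 CPM in no disease nerve, and to 372 to 624 CPM in peak DRG, against 201 to 223 CPM in no disease DRG, and their part was not tested.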

How the results depend on the processing

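Of 1053 alternative values for the 9 genes, 983 kept direction and side of the threshold, 18 lost a call, 18 gained one and 34 changed sign, none of the last being called. In recovery against no disease nerve the count of genes higher went from 0 to 3 with DESeq2, 3 with no filter and 2 with all 18 libraries in 1 fit, and leaving out a library gave 0 to 2. In recovery against peak DRG the count lower went from 2 to 1 with limma-voom and 0 with all 18 libraries in 1 fit, and leaving out a library gave 0 to 2. Leaving out a library gave 0 to 1 lower in peak nerve, 0 to 1 higher in recovery against peak nerve, 0 to 1 higher in recovery against no disease DRG, and 0 to 1 lower in the difference of the peak change. For the difference of the change after peak it gave 2 to 4 lower. The cause was not tested.

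Leaving out a library changed signs over these ranges of log2 fold change: in peak nerve Apoc1 -0.34 to 0.13; in recovery against no disease nerve Nr1h3 -0.03 to 0.01 and Lpl -0.37 to 0.24. In peak DRG the ranges were Apoe -0.07 to 0.13, Lpl -0.40 to 0.05 and Fabp5 -0.08 to 0.03. In recovery against no disease DRG they were Apoe -0.16 to 0.08, Abca1 -0.11 to 0.07, Lpl -0.08 to 0.20 and Plin2 -0.07 to 0.06, and Abca1 and Plin2 were -0.01 with all 18 libraries in 1 fit. In recovery against peak DRG they were Apoe -0.20 to 0.03 and Apoc1 -0.34 to 0.21. Between tissues they were Abca1 -0.12 to 0.31 with no disease, Nr1h3 -0.32 to 0.07 for the peak change and Plin2 -0.10 to 0.18 after peak, where limma-voom gave 0.01 and the replicate block 0.00.

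The labels do not state that same-numbered libraries come from the same animal, so the numbers are not taken as pairs. Deviations of same-numbered libraries had correlations from -0.293 to 0.267, which cannot exclude pairing, under these numbers or others. With the replicate block the count lower in recovery against peak DRG went from 2 to 0 (adjusted p = 0.0834 for Abca1 and Plin2), and no other call of the 9 changed. Over all genes, recovery against no disease nerve had 164 calls, against 550 with DESeq2, 90 with limma-voom, 316 with no filter and 315 with all 18 libraries. Recovery against no disease DRG had 523, against 1506 with DESeq2 and 807 with no filter. Recovery against peak DRG had 23, against 292 with DESeq2, 12 with limma-voom, 138 with no filter and 4 with the replicate block. Peak DRG had 1257, against 1891 with DESeq2, and the difference of the change after peak 1356, against 2049. Of 1638 alternative list counts, 315 moved by over 1.5 times. Apoc1 had 5 to 22 counts in each DRG library, which limits the precision of its values there.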

Other observations

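Within the 9 nerve libraries alone, a comparison chosen after seeing the data, the genes most like Lpl among 11260 were Adipoq (r = 0.99), Lipe (r = 0.99) and Aqp7 (r = 0.989), which are known from adipocytes. Soat1 was nearest to Cd68 (r = 0.996), a lysosomal gene known from macrophages, Apoe to Fcrls (r = 0.995), Fabp5 to Snx16 (r = 0.993) and Abca1 to Abcc3 (r = 0.989). These correlations describe libraries that share stages, and have no test.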
